A study of Oryctolagus cuniculus with 16 samples.

Results

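The genes described here are those of antigen presentation by major histocompatibility complex (MHC) class II molecules in the vaginal wall of the rabbit, read in all 16 libraries by treatment. They were chosen by symbol and not by a cut on their values, although earlier results of these data were known. The 10 symbols were looked up in the count table, ignoring case, and 8 matched 1 line each among 13001 named genes. These were HLA-DRA, HLA-DMA, HLA-DMB, CD74, CIITA, CTSS, CD80 and CD86, and CD40 and IFI30 were not analysed here. All 8 were among the 10942 genes tested after the filter on low counts, with 10 to 74898 counts of a gene in a library.

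Poly(A) RNA from vaginal tissue was sequenced. All animals were New Zealand White rabbits, female and 17 to 19 weeks old. The groups were 6 control libraries of animals without surgery (control 2, 9, 16, 24, 25 and 29), 3 sham-operated libraries (sham 11, 12 and 14), 3 libraries beside an acellular graft, labelled as without particles (acellular 6, 8 and 10), and 4 libraries beside a graft with tissue particles, called PLATE (PLATE 1, 5, 9 and 13). Tissue of both graft groups was taken 10 mm from the graft, and the labels give no such distance for sham and control, so that sampling site and graft cannot be told apart in comparisons with them. The labels give neither the graft material nor the time between surgery and sampling, and they do not say whether control 9 and PLATE 9, which carry the same animal id, are 1 animal. They were treated as independent.

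Class II molecules are pairs of an alpha and a beta chain that show peptides from ingested or internal material to CD4+ T cells. New chains bind the invariant chain, CD74, which proteases of the endosome such as cathepsin S (CTSS) cut down to a short plug, and HLA-DM, itself a pair of the HLA-DMA and HLA-DMB chains, exchanges that plug for a peptide. Dendritic cells, B cells and macrophages carry class II molecules at all times, and many other cells, epithelium included, make them once interferon gamma has switched on CIITA, the coactivator on which class II transcription depends. CD80 and CD86 are the costimulatory ligands that the same presenting cells hold out to CD28 and CTLA4 on T cells.

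Libraries held 20992063 to 30695000 counts, and 22.9 to 28.5% of them lay on a pooled line of genes without a symbol, which was left out. Levels are given as CPM, the counts of a gene scaled to the same effective library size over named genes. Markers of the labelled tissue were present, since all 8 smooth muscle markers had counts in every library and at least 9 of 10 epithelial markers did. In control 2, however, the summed epithelial level was 17.1 CPM against 283 to 1678 CPM in the other libraries. Control 2, control 9 and PLATE 1 were known from earlier results of these data to stand apart. Median log2 fold changes of the 8 genes are therefore also given without PLATE 1 or control 9. Those of other genes and lists come from all 16 libraries only and may rest on PLATE 1 or control 9. In bulk tissue, a larger share of presenting cells and more class II RNA per cell cannot be told apart.

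HLA-DRA, the alpha chain of the DR molecule, was at 252 CPM in control 2, 1800 in control 9, 441 in control 16, 295 in control 24, 221 in control 25 and 626 in control 29. The sham libraries lay close together, at 290 CPM in sham 11, 364 in sham 12 and 309 in sham 14. Beside acellular grafts HLA-DRA was at 282 CPM in acellular 6, 1565 in acellular 8 and 1552 in acellular 10. Beside PLATE grafts it was at 4844 CPM in PLATE 1, 799.8 in PLATE 5, 1168 in PLATE 9 and 1345 in PLATE 13. Of the 7 graft libraries, 6 therefore stood above every sham library and above the 5 controls other than control 9, and the exception was acellular 6. Control 9 held 2.88 times the level of the next highest control, and PLATE 1 held 2.69 times that of control 9.

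CD74, the invariant chain, was high and low in the same libraries. It lay between 199 and 536 CPM in 5 controls and at 1955 CPM in control 9, and between 303 and 366 CPM in sham. Acellular 6 was at 253 CPM against 1174 in acellular 8 and 1395 in acellular 10. The PLATE libraries were at 4306, 779, 1101 and 1379 CPM in PLATE 1, 5, 9 and 13. Again all 4 PLATE libraries and 2 of 3 acellular libraries lay above all sham libraries.

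The peptide exchange factor HLA-DM showed this pattern in both of its chains. HLA-DMA was at 18.0 to 20.2 CPM in sham, at 14.96, 56.7 and 73.9 CPM in acellular 6, 8 and 10, and at 240, 37.0, 52.3 and 58.8 CPM in PLATE 1, 5, 9 and 13. Among controls it ran from 13.1 CPM in control 25 to 76.9 CPM in control 9, with a median of 20.8 CPM. HLA-DMB was at 27.7 to 35.0 CPM in sham, at 18.7, 135 and 236 CPM in acellular 6, 8 and 10, and at 412, 88.0, 121 and 122 CPM in PLATE 1, 5, 9 and 13. Among controls HLA-DMB had a lowest value of 24.3 CPM in control 2, a median of 44.1 CPM and a highest value of 162 CPM in control 9. Acellular 6 was the lowest of all 16 libraries for HLA-DMB, and acellular 10 was second only to PLATE 1.

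CTSS, the protease that degrades the invariant chain, varied less. It was at 93.3 to 132 CPM in sham, at 80.9, 288 and 436 CPM in acellular 6, 8 and 10, and at 679, 202, 306 and 200 CPM in PLATE 1, 5, 9 and 13. Controls had a lowest value of 66.0, a median of 121 and a highest value of 418 CPM, the last in control 9. PLATE 5 and PLATE 13 lay only a little above control 29, at 183 CPM.

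CIITA, the regulator, was scarce and had the widest span of the 8 genes, 47.5-fold from control 2 to PLATE 1. It was at 1.89 to 2.05 CPM in sham, at 2.10, 10.1 and 7.99 CPM in acellular 6, 8 and 10, and at 42.7, 5.24, 7.37 and 10.6 CPM in PLATE 1, 5, 9 and 13. In controls it had a lowest value of 0.900 CPM (10 counts, in control 2), a median of 2.19 and a highest value of 15.9 CPM in control 9. All 7 graft libraries lay above all sham libraries, although acellular 6 did so by a margin smaller than the range within sham.

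The costimulatory genes parted from each other. CD86 was at 7.25 to 11.8 CPM in sham, at 6.48, 18.3 and 18.9 CPM in acellular 6, 8 and 10, and at 45.2, 12.8, 12.7 and 15.5 CPM in PLATE 1, 5, 9 and 13, so that its high and low graft libraries were those of the class II genes, over a smaller span. Controls had a lowest value of 6.84, a median of 9.46 and a highest value of 17.7 CPM. CD80 did not share that pattern. It was at 1.73 to 3.11 CPM in sham, at 2.69, 1.81 and 3.80 CPM in acellular 6, 8 and 10, and at 21.9, 2.66, 3.66 and 4.18 CPM in PLATE 1, 5, 9 and 13. With controls at a lowest value of 2.52, a median of 3.25 and a highest value of 6.24 CPM, PLATE 1 alone lay above the range of the other groups, and acellular 8, among the highest libraries for HLA-DRA, was second lowest for CD80.

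**Figure D1:**
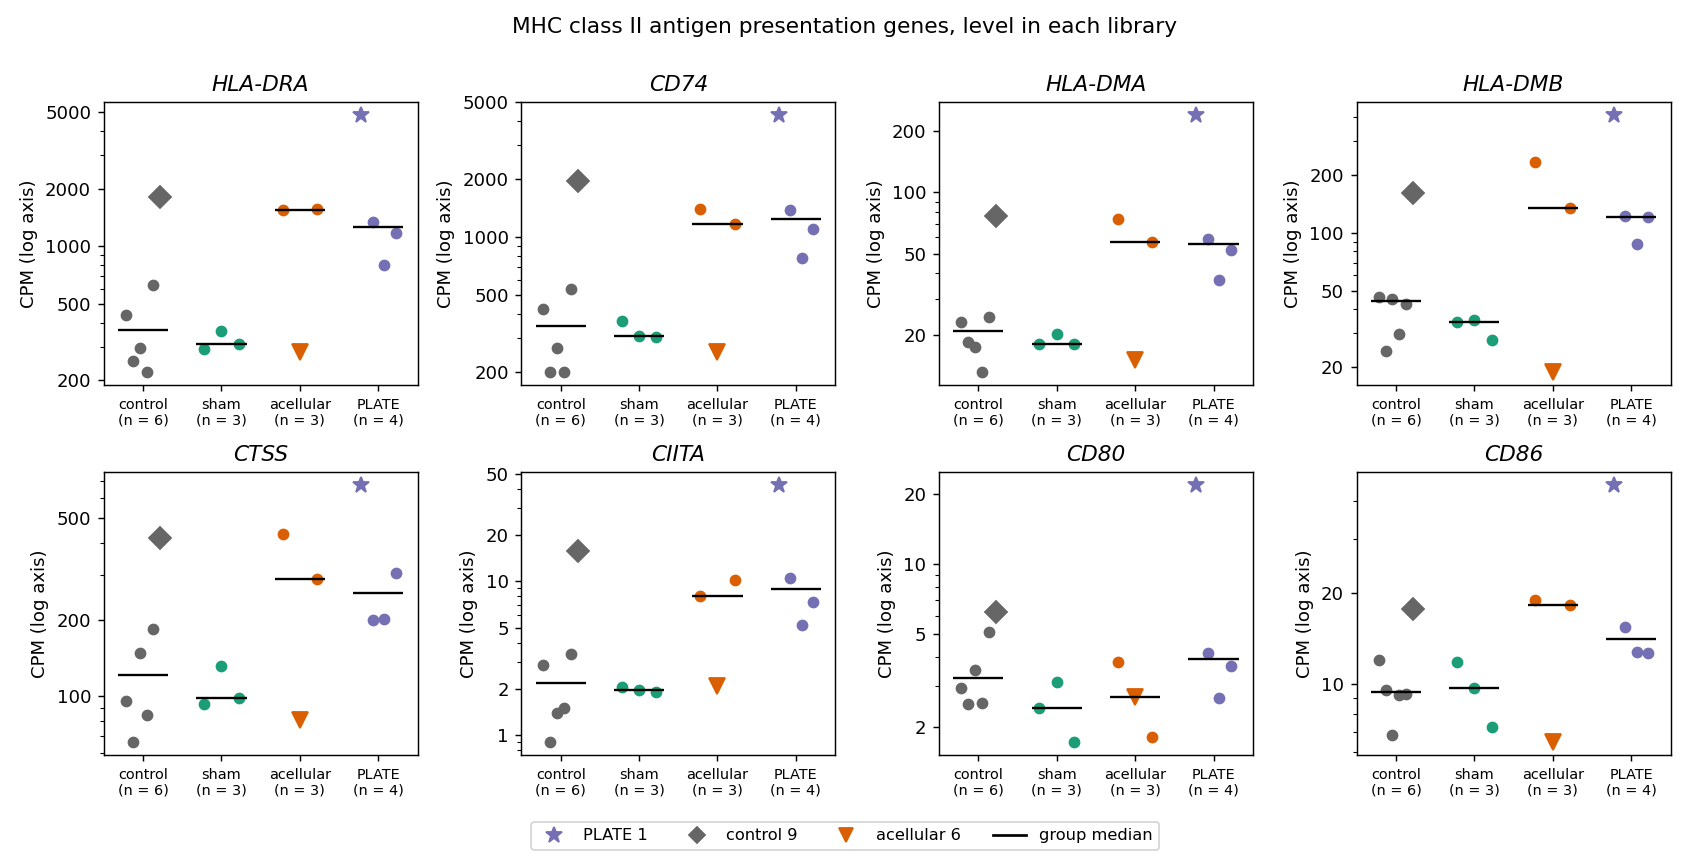
CPM of each of the 8 genes (vertical log axis) in each library by group, with a symbol per library and a line at the group median. In 7 panels the PLATE libraries lie above all sham libraries, PLATE 1 (star) is highest in all 8, control 9 (diamond) is the highest control in all 8, and acellular 6 (triangle) is the lowest acellular library in 7.

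Sham surgery is the comparison that asks what a graft adds to an operation. Against sham, all 8 genes had higher fitted levels beside PLATE grafts, with a median log2 fold change of 2.45 against 0.03 over all genes tested, of which 52.6% lay above 0 (n = 4 against 3). HLA-DRA stood at 2.67 ± 0.85 (log2 fold change ± SE), CIITA at 3.06 ± 1.03, CD74 at 2.54 ± 0.88, HLA-DMB at 2.52 ± 0.82, HLA-DMA at 2.37 ± 0.75, CD80 at 1.74 ± 0.66, CTSS at 1.68 ± 0.67 and CD86 at 1.16 ± 0.49. None passed the threshold of 0.05 in the quasi-likelihood test of edgeR after Benjamini-Hochberg adjustment over all genes tested (adjusted p = 0.657 for each of the 8), nor did any other gene (0 of 10942, 0%). At an unadjusted p under 0.05 all 8 lay higher, as did 5.85% of all genes tested. For 7 of 8 the groups did not overlap, CD80 being the exception, where 7.91% of all genes lay higher without overlap. Without PLATE 1 the median was 1.57, HLA-DRA stood at 1.78 and CD80 at 0.53. The same 7 genes again had no overlap, against 11.4% of all genes, and only 5 of 8 had an unadjusted p under 0.05 in edgeR. The share of all genes in that fit is not reported here, so the count of 5 has no background beside it. In the exact permutation test of log2 CPM, two-sided, HLA-DRA had p = 0.0286, the smallest that 4 against 3 can give (0.229 after adjustment over 48 such tests of genes and comparisons).

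Acellular grafts against sham gave a smaller median of 1.45, with all 8 genes on the higher side (n = 3 against 3, with a median of 0.02 and 52.2% above 0 over all genes). HLA-DMB stood at 2.00 ± 0.83, HLA-DRA at 1.82 ± 0.85, CIITA at 1.77 ± 1.02, CD74 at 1.53 ± 0.88, HLA-DMA at 1.37 ± 0.76 and CTSS at 1.32 ± 0.69. CD86, at 0.60 ± 0.51, and CD80, at 0.20 ± 0.68, were within about 1 SE of no difference. By edgeR the adjusted p was 0.902 for the 6 genes other than the costimulatory pair, and 0 genes of all tested passed (0%). HLA-DRA and HLA-DMB had an unadjusted p under 0.05, where 1.76% of all genes did so on the higher side. The groups did not overlap for CIITA alone, against 7.82% of all genes. Acellular 6 lay inside or below the sham range for the other 7, and for CD80 acellular 8 lay inside it too. Without acellular 6 the median was 1.89 and 7 of 8 genes had no overlap, CD80 again being the exception, against 21.8% of all genes. With limma voom, which weights libraries by quality, HLA-DRA alone among the 8 passed in this comparison, at 2.00 and an adjusted p of 0.0496, as 1 of 72 genes that did (0.658% of all genes). Over the alternatives run for this gene and comparison, log2 fold changes ran from 0.63 to 2.28 and adjusted p from 0.0496 to 1.

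Against unoperated control, PLATE libraries had a median log2 fold change of 1.67 with all 8 genes higher (n = 4 against 6, with a median of -0.01 and 47.7% above 0 over all genes). CIITA stood at 1.92 ± 0.77, HLA-DRA at 1.75 ± 0.65, HLA-DMA at 1.74 ± 0.58, HLA-DMB at 1.67 ± 0.63, CD74 at 1.66 ± 0.67, CD80 at 1.08 ± 0.52, CTSS at 1.06 ± 0.53 and CD86 at 0.99 ± 0.40. By edgeR the adjusted p was 0.998 for each and 0 of 10942 genes passed (0%). Of the 8, 6 had an unadjusted p under 0.05, all but CD80 and CTSS, where 3.3% of all genes did so on the higher side. In no gene of the 8 were the groups apart (0.0274% of all genes lay higher without overlap), since control 9 lay above PLATE 5, 9 and 13 for all 8. The estimate moved with the highest library of each group. Without PLATE 1 the median was 0.80 and no gene of the 8 had an unadjusted p under 0.05, with the share of all genes in that fit not reported here. The median was 2.32 without control 9. With both left out, a setting chosen after seeing the data, the median was 1.45, and 7 of 8 genes had no overlap, CD80 being the exception, against 3.78% of all genes.

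Acellular against control gave a median of 0.68 with 7 of 8 genes higher (n = 3 against 6, with a median of -0.03 and 45.8% above 0 over all genes), with HLA-DMB at 1.15 ± 0.67, HLA-DRA at 0.90 ± 0.70 and CD80 on the lower side at -0.46 ± 0.59. The adjusted p by edgeR was 0.865 for HLA-DMB and 0.881 for HLA-DRA, and 0 of the 8 had an unadjusted p under 0.05 on the higher side (1.77% of all genes) or groups that did not overlap (0.704%). Without control 9 the median was 1.43, without acellular 6 it was 1.12 and without acellular 10 it was 0.28. Sham against control gave values below 0 for all 8, with a median of -0.76 (n = 3 against 6, with a median of -0.06 and 42.1% above 0 over all genes), none with an unadjusted p under 0.05 on the lower side (1.76% of all genes). Without control 9 that median was -0.07, so that the sham median below control rested largely on 1 control library. In that fit CD74 stood at 0.00216 and CD86 at 0.03, but HLA-DRA stayed at -0.19, HLA-DMB at -0.22 and CD80 at -0.47.

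The 2 graft types were compared with each other to ask what the particles add. PLATE against acellular had a median of 0.92 with all 8 genes higher (n = 4 against 3, with a median of 0.02 and 52.4% above 0 over all genes). CD80 had the largest value, 1.54 ± 0.65, and was the only gene of the 8 with an unadjusted p under 0.05 on the higher side, as 3.61% of all genes had (edgeR adjusted p = 0.875). CIITA stood at 1.29 ± 0.95, HLA-DRA at 0.85 ± 0.79 (adjusted p = 0.893) and CTSS at 0.37 ± 0.64, and in no gene of the 8 were the groups apart (3.27% of all genes). Without PLATE 1 the median was -0.01, HLA-DRA stood at -0.04, HLA-DMB at -0.23 and CD80 at 0.34. Without acellular 6 the median was 0.47. The value above 0 thus rested on PLATE 1.

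**Figure D2:**
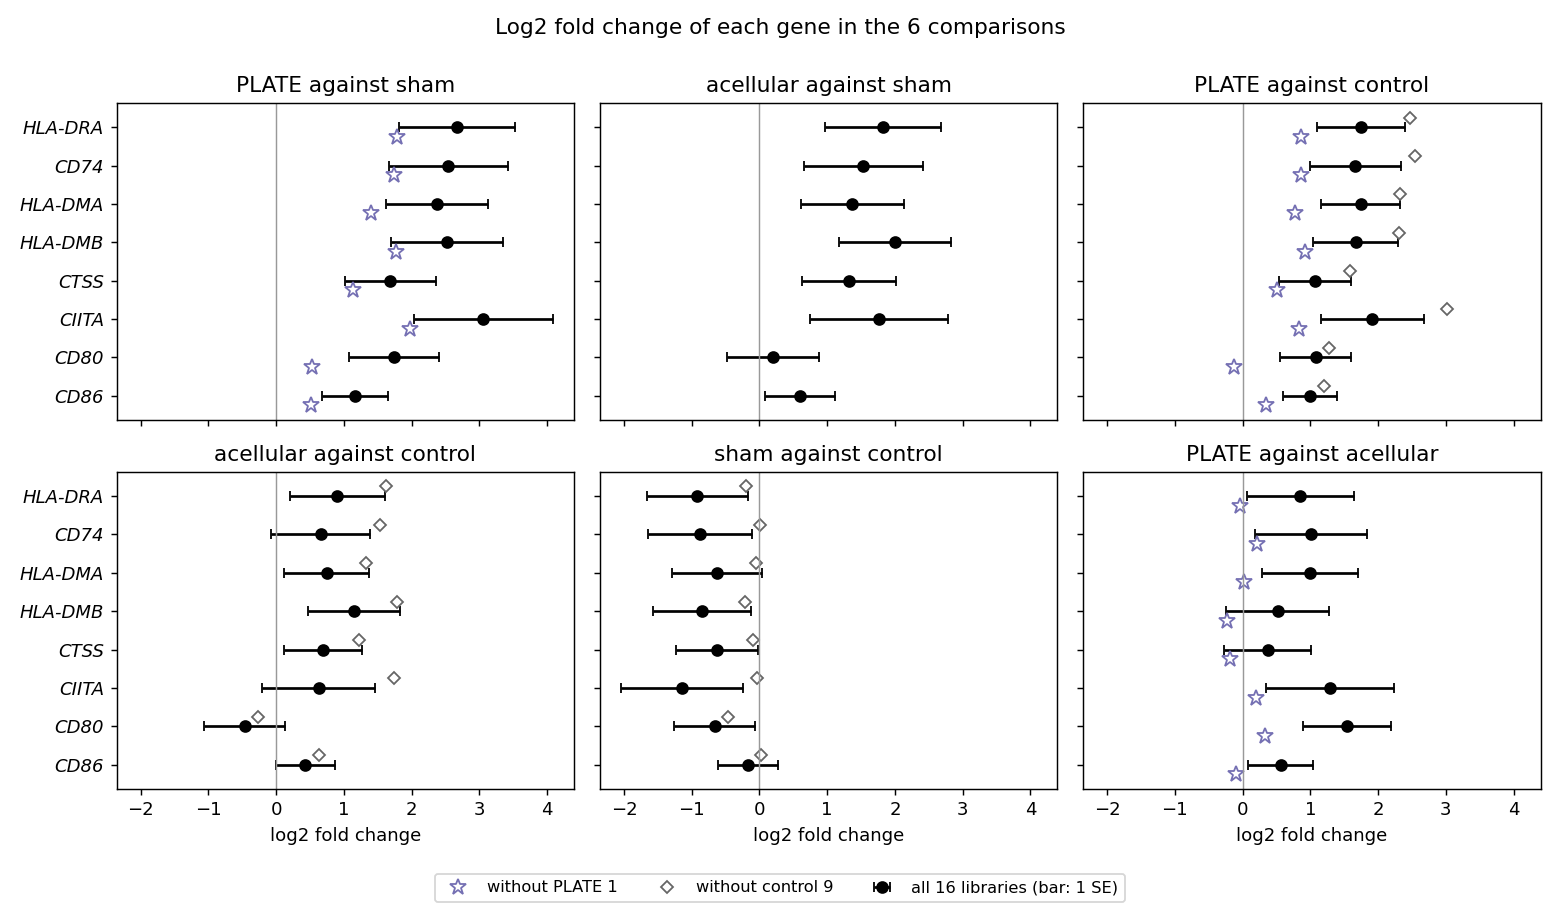
Log2 fold change (horizontal axis) of each gene in the 6 comparisons from the fit of all 16 libraries (filled points, bars of 1 SE), without PLATE 1 (open stars) and without control 9 (open diamonds). Without PLATE 1, PLATE against acellular lies between -0.23 and 0.34, and PLATE against sham lies between 0.51 and 1.97. Sham against control lies between -0.47 (CD80) and 0.03 without control 9.

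The comparisons with sham share the sham libraries, and those with control share the control libraries, so they are not independent of each other.

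Other genes of the class II pathway were read from a list of 38 symbols, older aliases included, of which 19 matched a line and all 19 were tested. None passed in any comparison. Against sham, all 19 lay higher in PLATE with a median of 0.31, 6 at an unadjusted p under 0.05 and 5 without overlap (52.6%, 5.85% and 7.91% of all genes). The remaining class II chains in the list were high in mostly the same libraries as HLA-DRA. HLA-DPB1, the beta chain of DP, was at 1.39 to 2.51 CPM in sham, at 1.23, 13.3 and 6.46 CPM in acellular 6, 8 and 10, and at 23.2, 6.64, 8.42 and 11.6 CPM in PLATE 1, 5, 9 and 13 (2.64 against sham, adjusted p = 0.657 by edgeR). Reads of HLA-DPB1 may be shared with beta chains that were not analysed here, so its level is uncertain. HLA-DOB, a chain of the HLA-DO complex that restrains HLA-DM and is best known from B cells, was at 2.70 to 3.25 CPM in sham and at 94.5, 6.68, 7.53 and 14.95 CPM in PLATE 1, 5, 9 and 13 (3.41 against sham). The next highest library for HLA-DOB was control 9, at 18.2 CPM, and in PLATE 1 its ratio to HLA-DMB, 0.229, was the highest of all 16.

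The factors that bind class II promoters had small differences. RFX5, a subunit of the RFX complex that recruits CIITA, lay between 21.4 and 36.7 CPM in all 16 libraries, with a log2 fold change of 0.23 for PLATE against sham and -0.15 for acellular against sham. RFXAP, its partner, lay between 4.96 and 10.3 CPM, with 0.05 and 0.22 in these comparisons. Of the NF-Y subunits and CREB1, which bind beside RFX, NFYA was at 23.7 to 28.3 CPM in sham, 31.0 to 34.8 CPM in acellular (0.31, without overlap) and 26.9 to 46.2 CPM in PLATE (0.36). NFYB, NFYC and CREB1 lay between -0.12 and 0.16 in these comparisons. MARCHF1, the ubiquitin ligase that removes class II molecules and CD86 from the cell surface, ran with the class II genes instead, from 2.54 CPM in control 25 to 41.8 CPM in PLATE 1, at 1.84 against sham (unadjusted p = 0.019 in edgeR). The PLATE median of MARCHF1 was 7.47 CPM, and its fold change without PLATE 1 is not reported here.

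Interferon gamma is the classical inducer of CIITA. IFNG itself was near the detection limit, at 0 to 0.44 CPM in control, 0.42 to 1.55 CPM in PLATE, 0.41 to 2.49 CPM in acellular and 0.24 to 2.96 CPM in sham, and its highest library was sham 14, which was low in class II genes. Of 13 genes of the interferon gamma axis tested, 12 lay higher in PLATE than in sham (median 1.05, 52.6% of all genes higher) and 11 in acellular (median 0.80, 52.2%), 0 passing after adjustment.

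Genes of MHC class I presentation, which almost all cells carry, had another order. B2M, the light chain of class I molecules, was at 2604 to 4605 CPM in sham, at 3048, 9774 and 9424 CPM in acellular 6, 8 and 10, and at 5759, 5090, 7417 and 4537 CPM in PLATE 1, 5, 9 and 13. All 12 class I genes tested lay lower in PLATE than in acellular, with a median of -0.24, whereas all 8 class II genes lay higher. Of all genes tested, 52.4% lay above 0, and none of either list passed. Without PLATE 1 the class II median was -0.01, and the class I median without it is not reported here. NLRC5, the coactivator of class I genes and a relative of CIITA, was at 21.0 CPM in PLATE 1 against 16.6 CPM in control 9 and 4.47 to 9.52 CPM in acellular. The HLA-DRA to B2M ratio, in which gene length cancels between libraries, lay between 0.0608 and 0.296 in 15 libraries and at 0.841 in PLATE 1.

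Receptors for the costimulatory ligands and other genes of contact with T cells were read beside them. CD28 was at 0.33 to 0.65 CPM in sham and at 3.82, 1.70, 1.15 and 2.36 CPM in PLATE 1, 5, 9 and 13, and in acellular it was at 0.27, 1.55 and 1.87 CPM in acellular 6, 8 and 10. CTLA4, the inhibitory receptor for CD80 and CD86, was at 8.67 CPM in PLATE 1 and at most 1.41 CPM in any other library. CD40LG, the T cell ligand of CD40, was highest in acellular 8 (5.44 CPM) and PLATE 1 (5.37 CPM). CD274, an inhibitory ligand, was at 23.7 CPM in PLATE 1 and at 0.93 to 5.20 CPM elsewhere. The list had 11 genes tested and also held ICOS, TNFSF4, TNFRSF9, CD27, CD2, ICAM1 and ITGAL. Not all of its genes are receptors for CD80 or CD86. All 11 lay higher in PLATE than in sham (median 1.62), as did 52.6% of all genes. The groups did not overlap for 7, where 7.91% of all genes lay higher without overlap, and 0 passed.

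The class II genes were closely tied across libraries. Over the 15 pairs among HLA-DRA, HLA-DMA, HLA-DMB, CD74, CIITA and CTSS, Spearman's rho of log2 CPM over 16 libraries ran from 0.832 to 0.971. After the group means were subtracted it ran from 0.835 to 0.982 over all groups pooled, so that the tie did not rest on the group means alone. Without control 2, control 9 and PLATE 1, and with the group means kept, it ran from 0.703 to 0.995. The tie within each single group was not examined. CD86 had 0.797 to 0.926 with these 6. CD80 had 0.406 to 0.626 with the other 7 genes and 0.192 to 0.440 without the 3 libraries. These are descriptions of genes measured in the same libraries, which share depth and tissue composition.

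Pearson's r of HLA-DRA with CIITA was 0.982 and Spearman's rho 0.929 (permutation p = 1e-05 for each, the smallest that 100000 permutations can give, 2.22e-05 after adjustment over 20 relations). Without the 2 libraries farthest from the median, control 9 and PLATE 1, r was 0.969. With PTPRC, the CD45 phosphatase carried by all leukocytes, r was 0.954 and rho 0.965 (permutation p = 1e-05 for each, adjusted 2.22e-05), and r was 0.92 without the same libraries and 0.942 after subtraction of group means. With B2M r was 0.772 and rho 0.862 (permutation p = 0.00039 and 1e-05, adjusted 6e-04 and 2.22e-05), and 0.748 without control 2 and control 24. With CD80 r was 0.693 and rho 0.591 (permutation p = 0.00271 and 0.0181, adjusted 0.00361 and 0.0213), but r was 0.307 without control 9 and PLATE 1, so that this relation rests on them. With IFNG r was 0.472 and rho 0.532 (permutation p = 0.0652 and 0.036, adjusted 0.0687 and 0.04), and r was 0.603 without control 2 and sham 14. Of the 20 relations, 17 passed on r after adjustment. The mean of the smooth muscle markers was among these, at r = -0.591 (permutation p = 0.0159, adjusted 0.0187). The 20 were chosen genes and lists, and the share of all genes tested that would pass was not computed, so the count has no background beside it.

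**Figure D3:**
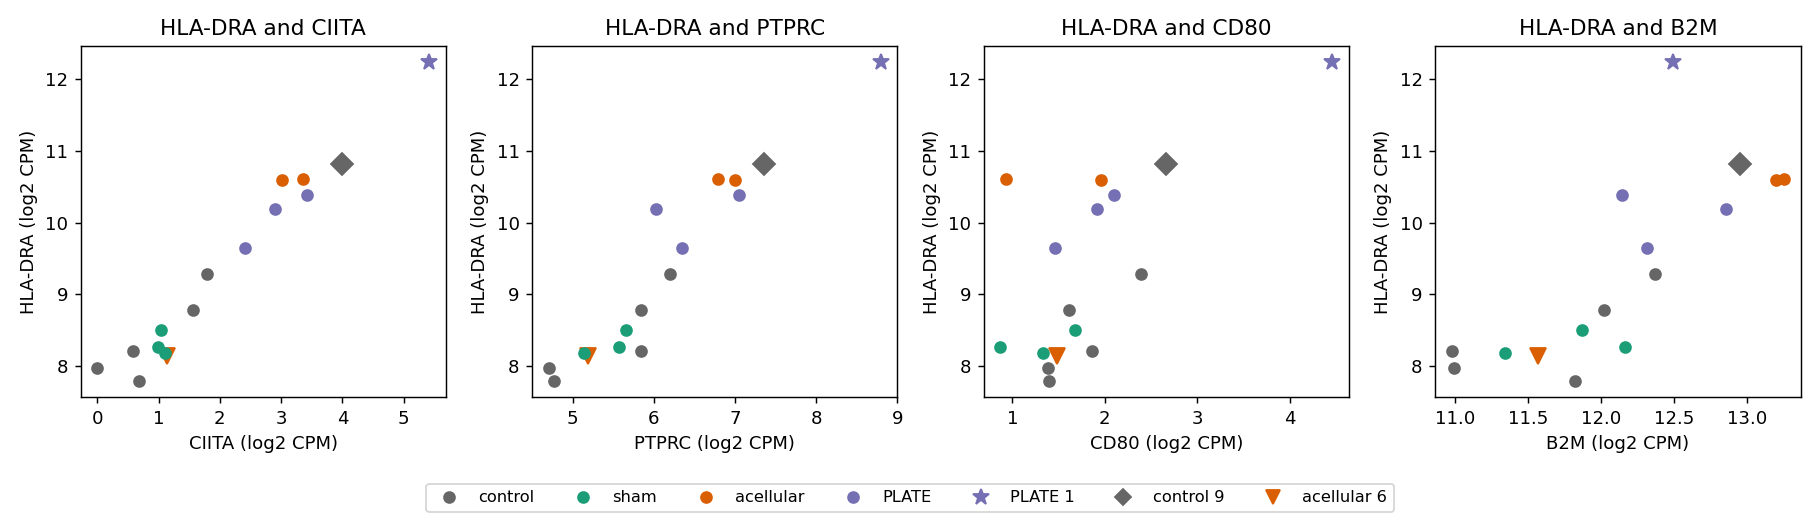
HLA-DRA (vertical axis, log2 CPM) against CIITA, PTPRC, CD80 and B2M (horizontal axes, log2 CPM), 1 symbol per library coloured by group. The libraries follow a line for CIITA (r = 0.982) and PTPRC (r = 0.954), scatter for CD80 apart from control 9 and PLATE 1, and PLATE 1 leaves the trend for B2M.

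The genes outside the list whose levels were most like those of HLA-DRA over the 16 libraries were MARCHF1 (rho = 0.971), PTPRC (0.965), STK17B, a serine/threonine kinase (0.965), SCIMP, a transmembrane adaptor (0.956), and SLAMF8, a receptor of the SLAM family (0.944). Those most like CIITA were IRF8, a transcription factor of myeloid and B cells (0.959), DEF6, an exchange factor of lymphocytes (0.956), CD2, an adhesion receptor of T and NK cells (0.950), LPCAT2, an enzyme of phospholipid remodelling (0.941), and PAG1, a membrane adaptor (0.938). They were taken as the highest of all genes tested outside the 8, so the values are a description.

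Leukocyte markers were high in many of the same libraries as the class II genes, with control 24 as an exception. The 9 pan-leukocyte markers summed to 259 to 1114 CPM in control, to 311 to 375 CPM in sham, to 322, 799 and 1250 CPM over the acellular libraries and to 576 to 3762 CPM in PLATE, with all 9 detected in every library, and 8 of 9 lay higher without overlap in PLATE than in sham (7.91% of all genes). Control 24, at 702 CPM, had more than PLATE 9, at 576 CPM, although its HLA-DRA was 295 against 1168 CPM. PTPRC was at 26.0 to 163 CPM in control, at 35.2 to 50.3 CPM in sham, at 36.5, 111.1 and 128 CPM in acellular 6, 8 and 10, and at 444, 81.1, 65.3 and 132 CPM in PLATE 1, 5, 9 and 13. Of 17 macrophage markers, all lay higher in PLATE than in sham, as did 52.6% of all genes (5 without overlap, 7.91% of all genes). Against control 13 lay higher, as did 47.7% of all genes, with MARCO and CD163, scavenger receptors, at -1.51 and -1.02. The 17 macrophage markers summed to 365 to 1003 CPM in sham, 487 to 1764 in acellular, 609 to 9916 in PLATE and 413 to 2176 in control. LYZ, lysozyme, made up 6869.6 CPM of the sum in PLATE 1 and 254 to 433 CPM in PLATE 5, 9 and 13. The 10 dendritic cell markers summed to 60.5 to 102.2 CPM in sham, 100 to 223 in acellular, 141 to 383 in PLATE and 50.2 to 296 in control. CADM1, an adhesion molecule that other cells carry too, was a large part of them, at 56.7 to 201 CPM in PLATE, 83.5 to 175 in acellular and 39.3 to 74.3 in sham. The 10 T cell markers summed to 51.9 to 65.8 CPM in sham, 52.9 to 154 in acellular, 77.7 to 186 in PLATE and 11.9 to 154 in control. The 13 B cell markers summed to 17.1 to 93.3 CPM in control, 11.0 to 31.3 in sham and 14.9 to 29.1 in acellular, and to 491 CPM in PLATE 1 against at most 54.7 CPM in the other PLATE libraries.

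**Figure D4:**
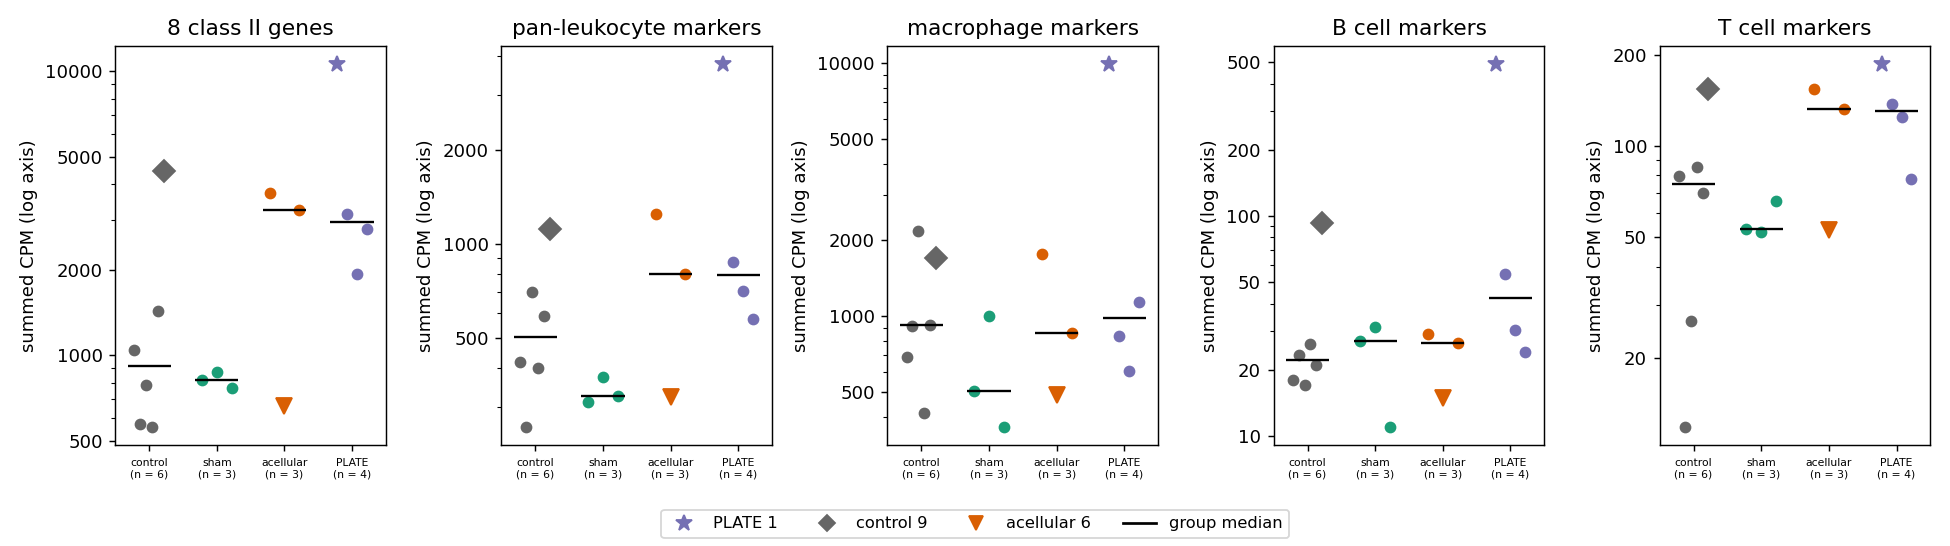
Summed CPM (vertical log axis) of the 8 class II genes and of markers of leukocytes, macrophages, B cells and T cells in each library by group, with lines at group medians. PLATE 1 (star) is highest in all 5 panels, acellular 6 (triangle) is the lowest acellular library in all 5, and B cell markers reach 491 CPM in PLATE 1 and at most 93.3 CPM elsewhere.

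Markers of the tissue itself differed along with these groups. The 8 smooth muscle markers summed to 13589 CPM in acellular 6, 18607 in acellular 8 and 14640 in acellular 10 against 37930 to 64113 CPM in sham, without overlap for any of the 8 (10.5% of all genes lay lower without overlap), and to 29606 to 48559 CPM in PLATE. Control 9 had the lowest smooth muscle sum of all libraries, 9375 CPM, and the highest epithelial sum, 1678 CPM. EPCAM, an adhesion protein of epithelial cells, was at 70.6 to 117 CPM in sham, at 119, 158 and 287 CPM in acellular 6, 8 and 10, and at 33.4, 172, 166 and 126 CPM in PLATE 1, 5, 9 and 13. Among macrophage genes, CD68, a lysosomal glycoprotein, was at 23.0 to 36.9 CPM in sham and at 358, 35.5, 81.6 and 55.2 CPM in PLATE 1, 5, 9 and 13. The part of these markers in the class II results was not tested.

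With the mean log2 level of the pan-leukocyte markers as a covariate in the fit, the median log2 fold change of the 8 genes was 0.38 for PLATE against sham (2.45 without it), 0.31 for acellular against sham (1.45), 0.51 for PLATE against control (1.67) and -0.03 for PLATE against acellular (0.92). In that fit HLA-DRA stood at 0.55 for PLATE against sham, 0.63 for acellular against sham and 0.56 for PLATE against control, with unadjusted p of 0.225, 0.151 and 0.108 in edgeR (adjusted p of 0.91 or more). CD80 and CD86 stood at -0.01 and -0.05 for PLATE against sham. The covariate and the group differ together in these libraries, so the share of each in the result was not tested.

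The ratio of HLA-DRA to PTPRC within a library gave a view that does not depend on the scaling of libraries. It was 6.49 to 8.25 in sham and 5.18 to 11.0 in control, of which the highest was control 9. It was 7.73, 14.1 and 12.2 in acellular 6, 8 and 10, and 10.9, 9.86, 17.9 and 10.2 in PLATE 1, 5, 9 and 13, so that PLATE and sham did not overlap. The log2 ratio was 3.56 ± 0.40 (SD) in PLATE and 2.86 ± 0.17 in sham, a difference of 0.70 (two-sided exact permutation p = 0.0286, the smallest that 4 against 3 can give, 0.603 after adjustment over 60 tests of ratios). Against control, at 3.03 ± 0.37, the difference was 0.54 (exact permutation p = 0.0381, adjusted 0.603). The ratio of CIITA to PTPRC differed by 0.89 between PLATE and sham (exact permutation p = 0.0571, adjusted 0.603). None of the 60 ratio tests passed after adjustment. Those of acellular against sham could not, since the smallest p that 3 against 3 can give is 0.1. With a smallest p of 0.0286, 4 against 3 left little room to pass.

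Of the 10 ratios computed, CD74 over HLA-DRA had the narrowest span. It ran from 0.750 to 1.26 over all 16 libraries, a span of 1.68-fold beside a span of 21.96-fold in HLA-DRA. HLA-DRA over CIITA spanned 2.47-fold, from 113.3 in control 9 to 280 in control 2. HLA-DMA over HLA-DMB spanned 2.54-fold, and both ends were acellular libraries, 0.314 in acellular 10 and 0.798 in acellular 6. CTSS over HLA-DRA spanned 3.56-fold with its lowest values in PLATE 1 (0.140) and PLATE 13 (0.148). HLA-DPB1 over HLA-DRA spanned 4.01-fold and HLA-DOB over HLA-DMB 6.88-fold, beside 3.46-fold for HLA-DRA over PTPRC. CD80 over CD86 spanned 5.56-fold, from 0.0993 in acellular 8 to 0.552 in control 29.

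**Figure D5:**
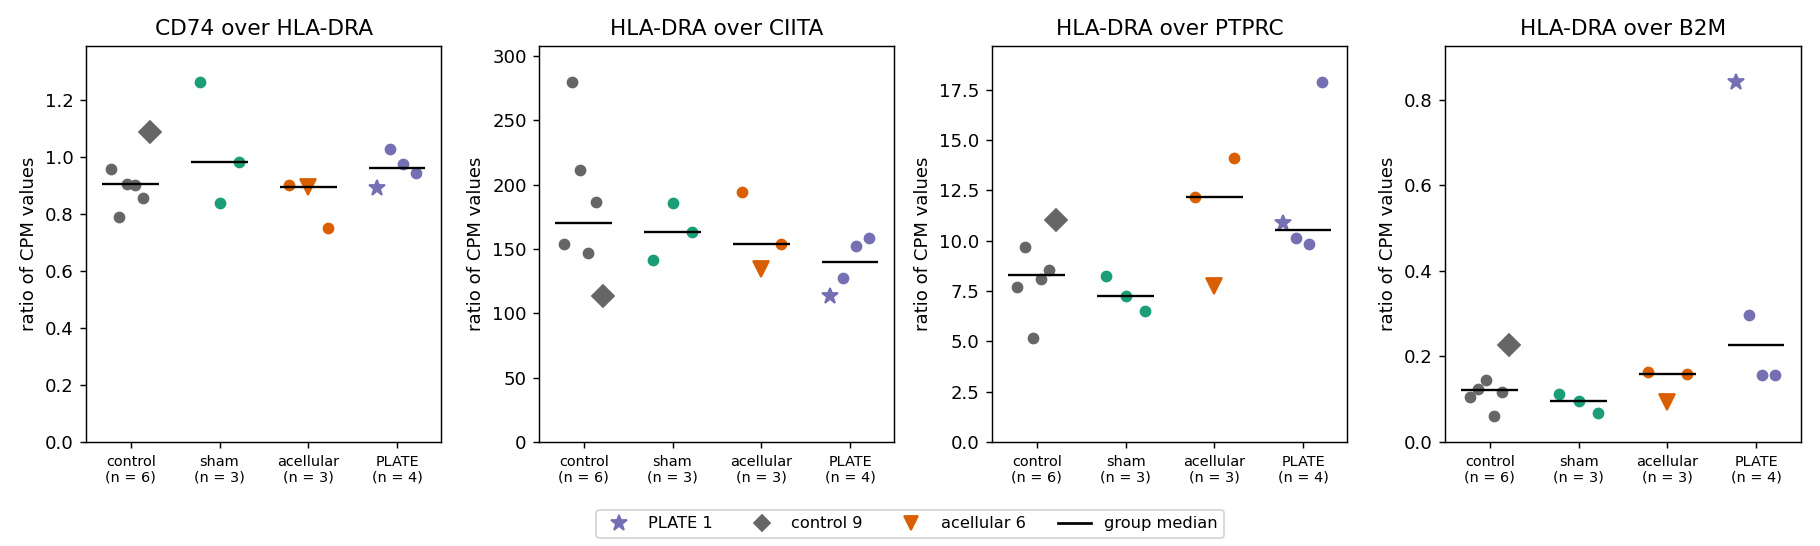
Ratio of CPM values (vertical axis, from 0) within each library by group, with lines at group medians. CD74 over HLA-DRA stays between 0.750 and 1.26, HLA-DRA over PTPRC is 9.86 or more in all PLATE libraries and at most 8.25 in sham, and HLA-DRA over B2M sets PLATE 1 apart at 0.841.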

How the data were processed

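Per the submitters' processing notes, reads were checked with FastQC, aligned with HISAT2 2.2.1 and assigned to genes with featureCounts. The genome build, annotation and strand setting are not given in the sources used here. The table deposited by the authors gives raw counts of reads for each symbol, not normalized. Its columns were tied to the samples through the index at the end of each column name, and 0 were left over.

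Counts of the 13001 named genes were filtered with filterByExpr (10942 kept), normalized by TMM factors and tested by quasi-likelihood in edgeR 4.0.16 (R 4.3.3). A single model held the 4 group means of the 16 libraries, leaving 12 residual degrees of freedom. The Benjamini-Hochberg adjustment covered every tested gene, and 0.05 was the threshold. Common biological variation (BCV) came to 0.44. CPM divides counts by the effective library size. Log2 CPM used a prior count of 2. Standard errors are the log2 fold change divided by the root of F. The scripts were tested on simulated data. For PLATE against sham 12% of 2-fold and 74% of 4-fold changes were recovered at the threshold, with 8 false calls. For PLATE against control these were 36% and 72%, with 7 false calls.

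Alternatives were DESeq2 size factors, no filter, DESeq2 1.42.0, limma 3.58.1 voom with quality weights, fits of 2 groups alone, a pan-leukocyte covariate, and libraries left out. The members, lists and tests were chosen with earlier results of these data known. All 8 members were named in every comparison. Of the lists, the genes named were class II chains, RFX subunits, IFNG, NLRC5, B2M, CD28, CTLA4, CD40LG, CD274 and leading markers, beside the 5 genes most like HLA-DRA and the 5 most like CIITA by Spearman's rho, and some genes of the naming rule are not reported here. The within-library ratios were added after the levels had been seen in part. The labels give each library an animal id, and p-values measure the spread between these libraries. No 2 libraries held identical counts. No sequence of these genes was used here.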

Additional observations from a re-analysis of the deposited data

Results flagged for a closer look

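A library far from the rest of its group was looked for in 36 sets of values, the 8 genes and 10 ratios in the control and PLATE groups, by the gap of the end value over the range of the group. For normally distributed values chance gives such a gap in about 1 in 20 groups, a rate that need not hold for CPM. Of the 36 sets, 14 had one. These sets are not independent, since the genes vary together over the same libraries, and control 9 and PLATE 1 were known to stand apart. The 13 gaps in gene levels were measured on CPM. On log2 CPM, examined after seeing the data, 3 of the 13 remained, HLA-DMA and HLA-DMB in control 9 and CD86 in PLATE 1. The sham and acellular groups, with 3 libraries each, were not examined this way.

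Control 9 was far above the other controls in 6 genes. HLA-DRA was at 1800 CPM against 221 to 626 CPM in the other 5 controls, CD74 at 1955 against 199 to 536, HLA-DMA at 76.9 against 13.1 to 24.5, HLA-DMB at 162.1 against 24.3 to 46.2, CIITA at 15.88 against 0.900 to 3.35 and CTSS at 417.6 against 66.0 to 183 CPM. CD80 and CD86 were highest in control 9 as well, without such a gap. Pan-leukocyte markers summed to 1114 CPM in control 9 against 259 to 702 CPM in the other controls.

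PLATE 1 was far above the other PLATE libraries in 7 genes. HLA-DRA was at 4844 CPM against 799.8 to 1345 CPM, CD74 at 4306 against 779 to 1379, HLA-DMA at 239.9 against 37.0 to 58.8, HLA-DMB at 412.3 against 88.0 to 122, CIITA at 42.68 against 5.24 to 10.6, CD80 at 21.92 against 2.66 to 4.18 and CD86 at 45.21 against 12.7 to 15.5 CPM. Its macrophage markers summed to 9916 CPM against at most 1136 CPM in PLATE 5, 9 and 13, and LYZ alone was at 6869.6 CPM of that sum.

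In PLATE 9 the log2 ratio of HLA-DRA to PTPRC was 4.159 against 3.301 to 3.446 in the other PLATE libraries.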

How the results depend on the processing

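No gene passed in edgeR in any of the 6 comparisons, with any library left out (0 in each). At an unadjusted p under 0.05 the fewest genes stood out in sham against control, 133 higher and 193 lower, and the most in PLATE against sham, 640 higher and 181 lower. By DESeq2, 10 genes passed for acellular against control, 1 for acellular against sham, 14 for PLATE against sham and 1 for PLATE against acellular, and limma voom gave 72 for acellular against sham. The cause was not tested. Of 768 values of the 8 genes under alternatives, 1 passed (HLA-DRA for acellular against sham with limma voom) and 45 had the opposite sign.

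With 1 library left out at a time, the median log2 fold change of the 8 genes ran from 0.80 to 2.32 for PLATE against control, 0.28 to 1.43 for acellular against control, -0.89 to -0.07 for sham against control, 1.03 to 1.89 for acellular against sham, 1.57 to 2.70 for PLATE against sham and -0.01 to 1.34 for PLATE against acellular. Single genes turned sign as follows, each range being that of the left-out libraries. CD80 ran from -0.13 to 1.37 for PLATE against control and from -0.10 to 0.42 for acellular against sham. For sham against control CD74 ran from -1.06 to 0.00216 and CD86 from -0.33 to 0.0296. For PLATE against acellular HLA-DRA ran from -0.0372 to 1.15, HLA-DMB from -0.23 to 1.27, CTSS from -0.19 to 0.91 and CD86 from -0.0904 to 0.80.

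With the pan-leukocyte covariate the median was 0.51 for PLATE against control, 0.31 for acellular against sham, 0.38 for PLATE against sham and -0.0269 for PLATE against acellular. In that fit CD80 stood at -0.20 for PLATE against control, and CD80 and CD86 at -0.34 and -0.0137 for acellular against sham and at -0.00745 and -0.0459 for PLATE against sham. For sham against control it gave 0.0191 for HLA-DRA, 0.12 for HLA-DMA, 0.0428 for HLA-DMB, 0.19 for CD74, 0.13 for CIITA, 0.13 for CTSS and 0.17 for CD86. For PLATE against acellular it gave -0.0868 for HLA-DRA, -0.13 for HLA-DMB, -0.0216 for CIITA, -0.19 for CTSS and -0.0322 for CD86. With limma voom PLATE against acellular had a median of -0.0639, with HLA-DRA at -0.18, HLA-DMA at -0.0115, HLA-DMB at -0.12, CTSS at -0.27 and CD86 at -0.17, while CD80 stood at -0.0131 for PLATE against control and -0.0878 for acellular against sham. Without control 2, control 9 and PLATE 1 the median for PLATE against acellular was -0.0274, with HLA-DRA at -0.0596, HLA-DMB at -0.25, CTSS at -0.21 and CD86 at -0.11, while CD80 was at -0.0326 for PLATE against control and CD86 at 0.0363 for sham against control. Without PLATE 1 and control 9, chosen after seeing the data, PLATE against acellular gave -0.0372 for HLA-DRA, -0.23 for HLA-DMB, -0.19 for CTSS and -0.0902 for CD86, and sham against control gave 0.00215 for CD74 and 0.0296 for CD86. The cause was not tested.

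No paired analysis was possible because the groups share fewer than 2 replicate numbers. The number of correlations of HLA-DRA that passed, 17 of 20, was 15 to 18 under the alternatives. CIITA and CD80 rest on the fewest counts, from 10 in a library.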

Other observations

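Macrophage markers and class II genes parted in control 24, but not in every control. Control 9, the highest control for HLA-DRA, had the next highest macrophage marker sum after control 24, 1693 CPM. Control 25, the lowest for HLA-DRA, had the lowest sum, 413 CPM. Control 24 held the highest macrophage marker sum of the controls, 2176 CPM, with CSF1R, the receptor for macrophage colony-stimulating factor, at 118 CPM, but HLA-DRA at only 295 CPM and CIITA at 1.40 CPM. PLATE 13 had CSF1R at 67.5 CPM with HLA-DRA at 1345 CPM and CIITA at 10.6 CPM. FLT3, a receptor of dendritic cells and their precursors, was at 4.74 CPM in control 24 and 14.4 CPM in PLATE 13. FLT3 is only 1 of 10 dendritic cell markers. Their mean log2 CPM was 2.03 in control 24 and 2.93 in PLATE 13. It was lower in control 29 (1.62) and control 16 (1.46), which had more HLA-DRA, 626 and 441 CPM. By summed CPM the order was the other way, with 80.0 in control 24, 118 in control 29 and 86.4 in control 16. Across the 16 libraries r of HLA-DRA was 0.93 with the mean of the dendritic cell markers (rho 0.924, permutation p = 1e-05 for each, adjusted 2.22e-05, r = 0.871 without control 9 and PLATE 1) and 0.74 with that of the macrophage markers (rho 0.674, permutation p = 0.00113 and 0.00524, adjusted 0.00161 and 0.00655, r = 0.826 without control 24 and PLATE 1). The difference between these 2 relations was not tested.

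Control 9 and PLATE 9 carry the same animal id in the labels, and control 9 had the higher level of all 8 genes, with HLA-DRA at 1800 against 1168 CPM.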
